A study of Mus musculus with 9 samples.

Results

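Glycolysis and hypoxia-response genes were followed in long-term haematopoietic stem cells (LT-HSCs) from the bone marrow of mice of 3 genotypes. The set holds 36 of the 22322 genes in the deposited table and was chosen by symbol: glucose and lactate transporters, the enzymes from hexokinase to lactate dehydrogenase with their isozymes, pyruvate dehydrogenase kinases, enzymes of fructose bisphosphate regulation, and the hypoxia-inducible factor (HIF) subunits with their prolyl hydroxylases and responsive genes. Of these, 33 reached a mean of 1 FPKM (fragment counts divided by transcript length and library size, so a level per length) over the 9 libraries and were tested. Slc16a3, Eno2 and Pfkfb4 did not, and Epas1 passed only through its level in Cxcl10-/- cells.

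The study asked how the chemokine gene Cxcl10 and its receptor gene Cxcr3 bear on the self-renewal of haematopoietic stem cells and on their differentiation. The sort took CD150+, CD48- and CD135- cells from the Lin-, Sca-1+, c-Kit+ fraction of C57BL/6 mice of 6 to 8 weeks, with no treatment given in the labels. There were 3 wild-type (WT) mice, 3 Cxcl10-/- mice and 3 Cxcr3-/- mice, and each library came from 500 to 800 cells of 1 mouse, so replicates were separate mice. The labels do not say how either null allele was made, and both genes were lost in the whole animal as far as the genotype names tell. Poly(A) RNA was turned into cDNA and amplified before library preparation.

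Glycolysis splits glucose into pyruvate in the cytosol and yields ATP without oxygen. Pyruvate is then either reduced to lactate by lactate dehydrogenase or taken into mitochondria and oxidised by pyruvate dehydrogenase, which the pyruvate dehydrogenase kinases switch off by phosphorylation. The HIF alpha subunits are marked for destruction by oxygen-dependent prolyl hydroxylases, and under low oxygen they persist and turn on genes of glucose uptake, glycolysis, the kinases and mitophagy. LT-HSCs are known for a low-oxygen bone marrow niche and for a metabolism that leans on glycolysis.

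The expected counts summed to between 12098498 and 17904629 per library. Transcripts of the mitochondrial genome took 12.6 to 13.1% of the counts in WT, 3.57 to 4.13% in Cxcl10-/- and 10.2 to 11.2% in Cxcr3-/- libraries, so FPKM and counts scaled by TMM are not on quite the same scale. The median SD of log2 CPM over genes was 0.28 in WT, 0.56 in Cxcl10-/- and 0.35 in Cxcr3-/-. Cxcl10 had 0 counts in the 3 Cxcl10-/- libraries, against 36, 84 and 3 in WT and 112, 553 and 176 in Cxcr3-/-. Cxcr3 had 0 counts in the 3 Cxcr3-/- libraries, but also in the 3 Cxcl10-/- libraries and WT replicates 1 and 2. It had 8 in WT replicate 3, so it checks little. The 12 LT-HSC identity markers were all detected above the filter, with summed levels of 720 to 827 FPKM in WT, 720 to 836 in Cxcl10-/- and 667 to 745 in Cxcr3-/-. Of these 12, 1 was called in Cxcl10-/- against WT: Kit, the gene of the c-Kit protein used in the sort, was lower at 81.4, 72.3 and 45.8 FPKM, against 98.1, 110 and 106 in WT (log2 change -0.75 ± 0.17; edgeR adjusted p = 0.0260), and limma on FPKM did not call it (adjusted p = 0.0662). Hoxb5 was separate on FPKM, at 2.70 to 4.66 in WT and 6.46 to 9.74 in Cxcl10-/-, and was not called (edgeR adjusted p = 0.321). Slamf1, the gene of the sorted CD150 protein, was called lower by limma on FPKM (adjusted p = 0.0458) and not by edgeR (adjusted p = 0.119), and stood at 6.87, 7.40 and 5.23 FPKM in WT and at 0.69, 0.71 and 4.12 FPKM in Cxcl10-/- cells. In such bulk libraries fewer cells of a type and less RNA per cell cannot be told apart.

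In WT LT-HSCs the set was led by the enzymes after the splitting of the hexose. Gapdh, which makes the first NADH of the pathway, was highest at 459 ± 62.9 FPKM (SD, n = 3), and Ldha, the lactate dehydrogenase A chain, was next at 243 ± 9.83. Pgk1, which makes the first ATP, followed at 161 ± 6.29 FPKM, then Ldhb at 134 ± 6.41 and Aldoa, the main aldolase, at 123 ± 11.2. The WT ranges of Ldhb, 130 to 142 FPKM, and of Aldoa, 111 to 132 FPKM, overlapped, so the order of this last pair is within their spread. The entry enzymes were lower by level: Hk1 stood at 16.7 ± 3.35 FPKM, Hk2 at 7.47 ± 1.20 and the liver-type phosphofructokinase Pfkl at 4.34 ± 0.384. Of the regulators, the kinase gene Pdk3 at 66.1 ± 4.14 FPKM and the mitophagy receptor genes Bnip3l at 85.8 ± 10.5 and Bnip3 at 73.8 ± 15.2 were among the higher members, whereas Epas1 was at 0.777 ± 0.466. Gapdh, Pgk1, Ldha, Aldoa, Tpi1, Pgam1 and Eno1 have processed pseudogene copies in the mouse genome, so the division of their reads is uncertain.

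**Figure D1:**
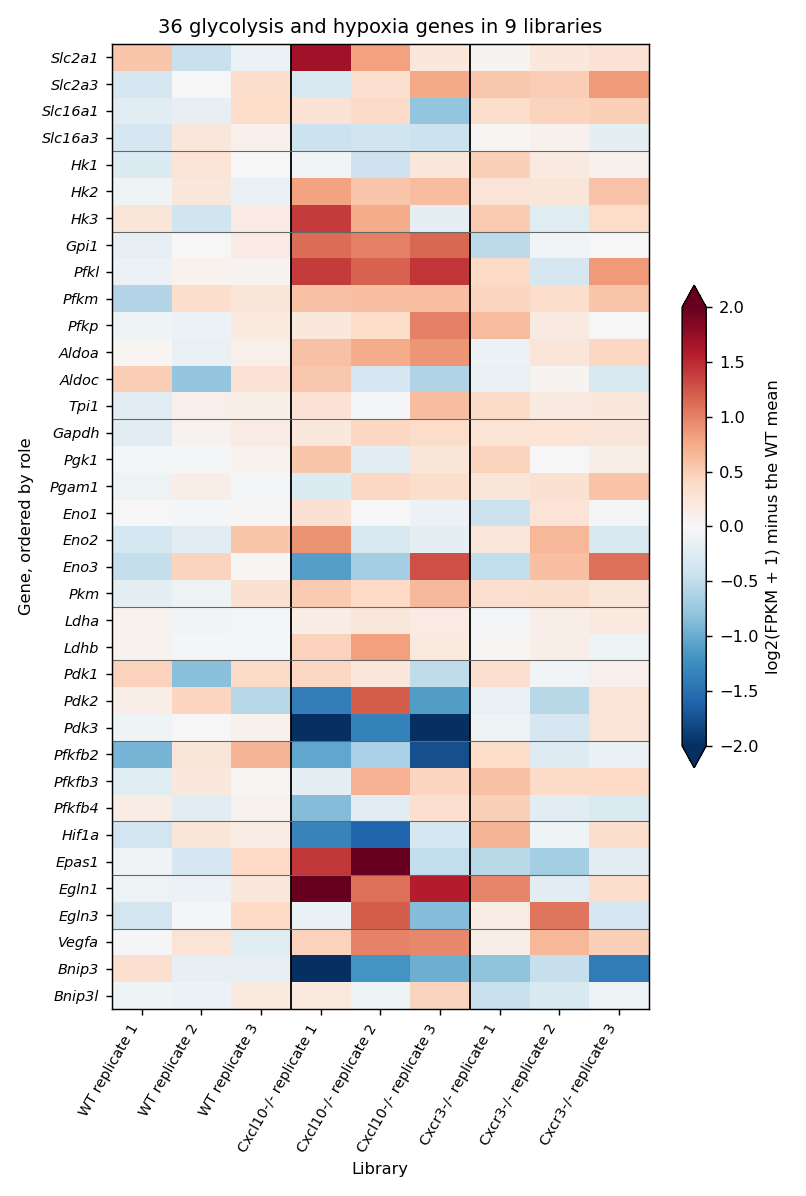
Level of each of the 36 genes (rows, grouped by role) in each of the 9 libraries (columns), drawn as log2(FPKM + 1) minus the mean of the 3 WT libraries. Pdk3 and Bnip3 are below WT in all 3 Cxcl10-/- libraries, and Gpi1, Pfkl, Aldoa and Egln1 are above it in all 3.

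Loss of Cxcl10 was compared with WT to ask which of these genes differed in cells that lack the ligand. In Cxcl10-/- LT-HSCs, Pdk3 and Bnip3 fell, and Egln1, Pfkl and Gpi1 rose, by edgeR's quasi-likelihood test with Benjamini-Hochberg adjustment over all 10866 genes tested. These 5 of 33 tested members make 15.2%, beside 7.22% of all genes called in this comparison, 3.52% higher and 3.7% lower. limma on log2(FPKM + 1) called 6, the same 5 and Aldoa, beside 9.28% of all genes. The 5 calls fell on a pyruvate dehydrogenase kinase, a HIF prolyl hydroxylase, a mitophagy receptor and 2 enzymes of upper glycolysis. The member median log2 fold change was 0.24, beside 0.06 over all genes, with 24 members above 0 and 9 below. Over 10856 genes the log2 fold change rose with transcript GC content (Spearman rank correlation 0.43). Tested members had a median GC content of 52.1%, beside 49.1% over all tested genes. The part of GC content in the member median was not tested. On FPKM, the libraries of 14 members did not overlap between these groups, 12 of them higher in Cxcl10-/-, beside 30.3% of all genes in either direction and 18.3% in the higher one.

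**Figure D2:**
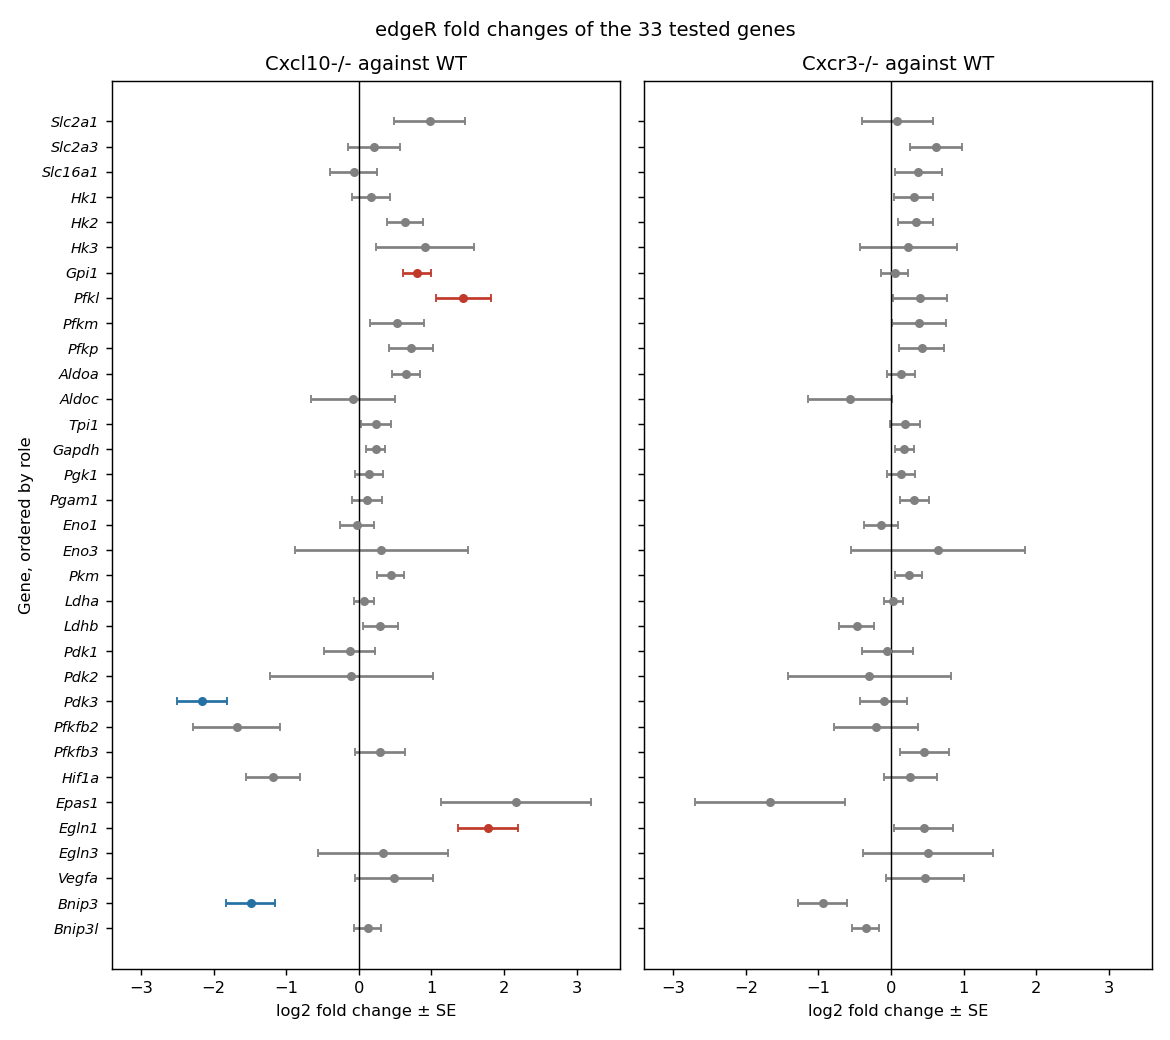
Log2 fold change with its SE from edgeR for the 33 tested genes, Cxcl10-/- against WT (left) and Cxcr3-/- against WT (right); red points passed the adjusted p of 0.05 upward, blue points downward and grey points did not pass. The left panel holds 3 red and 2 blue points, the right panel none.

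Markers of other cells and of handling moved with the same contrast. The 12 endothelial markers summed to 58.1 to 75.3 FPKM in WT and 466 to 671 FPKM in Cxcl10-/- libraries, with 5 of 11 tested called higher and Lyve1 at 0 in all 3 Cxcl10-/- libraries. The 12 stromal and bone markers summed to 3.76 to 8.11 FPKM in WT and 85.4 to 358 FPKM in Cxcl10-/-, with 4 of 6 tested called higher and Bglap at 0 in every library. The 16 immediate-early and handling-stress genes summed to 715 to 954 FPKM in WT and 1720 to 1966 FPKM in Cxcl10-/-, with 10 of 12 tested called higher. Most of that sum was Hsp90aa1, at 641 to 863 FPKM in WT and 1143 to 1433 FPKM in Cxcl10-/-, which was not called. Egr2 and Hspa1a were at 0 in all 3 Cxcl10-/- libraries. Some of the called genes reached the filter of 1 FPKM only through their level in Cxcl10-/-. They were Flt4, Stab1 and Stab2 of the endothelial markers, Cxcl12, Adipoq and Ibsp of the stromal and bone markers, and Fos and Fosb. Their calls are thus not independent of the filter. In Cxcr3-/- libraries the sums of these 3 lists were 40.6 to 73.3, 2.86 to 6.37 and 678 to 883 FPKM. The erythroid markers summed to 51.3 to 97.5 FPKM in WT, 90.1 to 636 FPKM in Cxcl10-/- and 60.3 to 65.2 FPKM in Cxcr3-/-. Of 6 tested, 1, Hba-a1, was called higher in Cxcl10-/- against WT. Neutrophil markers summed to 124 to 162, 164 to 333 and 94.0 to 154 FPKM in WT, Cxcl10-/- and Cxcr3-/-, monocyte and macrophage markers to 559 to 683, 423 to 471 and 225 to 406 FPKM, B cell markers to 50.6 to 71.4, 39.3 to 146 and 14.4 to 77.1 FPKM, and T and NK cell markers to 332 to 401, 171 to 227 and 201 to 406 FPKM. Lyz2, Cd79b and Nkg7 made most of the last 3 sums. Lyz2 was at 543 to 661 FPKM in WT and 370 to 441 FPKM in Cxcl10-/-, while Vcam1 went from 0.69 to 3.77 FPKM to 19.8 to 35.9 FPKM. In Cxcl10-/- against WT, Vcam1 was called higher, 1 of 5 tested monocyte and macrophage markers. Nkg7 was called lower, 1 of 2 tested T and NK cell markers. The neutrophil and B cell lists held 0 calls. The part of all these markers in the values of the glycolysis and hypoxia genes was not tested.

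Among the pyruvate dehydrogenase kinases, Pdk3 fell most of all members called. Its level was 62.2, 65.7 and 70.4 FPKM in the WT libraries, 8.17, 25.3 and 13.9 FPKM in the Cxcl10-/- libraries and 61.2, 52.2 and 79.0 FPKM in the Cxcr3-/- libraries. Every Cxcl10-/- library lay below every other library, and the WT and Cxcr3-/- ranges overlapped. The fall against WT was 4.47-fold, a log2 change of -2.16 ± 0.34 (SE; edgeR adjusted p = 0.00543), and limma on log2(FPKM + 1) gave -2.13 (adjusted p = 0.00308). The call held without any 1 of the 9 libraries, with log2 changes from -2.64 to -1.84. Pdk1, the kinase best known as a HIF target, was at 7.12 to 19.1 FPKM in WT, 9.21 to 18.3 FPKM in Cxcl10-/- and 13.0 to 17.1 FPKM in Cxcr3-/-, so all 3 groups overlapped. Its log2 change in Cxcl10-/- was -0.13 ± 0.35 (SE; edgeR adjusted p = 0.867). Pdk2 was at 1.12 to 3.24 FPKM in WT and between 0.20 and 6.24 FPKM in Cxcl10-/-.

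The make-up of the kinase family therefore differed by level. Pdk3 gave 74.3, 86.4 and 78.7% of the summed FPKM of Pdk1, Pdk2 and Pdk3 in WT, 30.6, 53.3 and 59.1% in Cxcl10-/- and 76.4, 78.7 and 82.0% in Cxcr3-/-. The Cxcl10-/- shares did not overlap with either other group. The sum of the 3 kinases was 76.1 to 89.5 FPKM in WT, 23.6 to 47.4 FPKM in Cxcl10-/- and 66.4 to 96.3 FPKM in Cxcr3-/-, so the lower share of Pdk3 went with a lower total and not with a higher level of Pdk1.

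**Figure D3:**
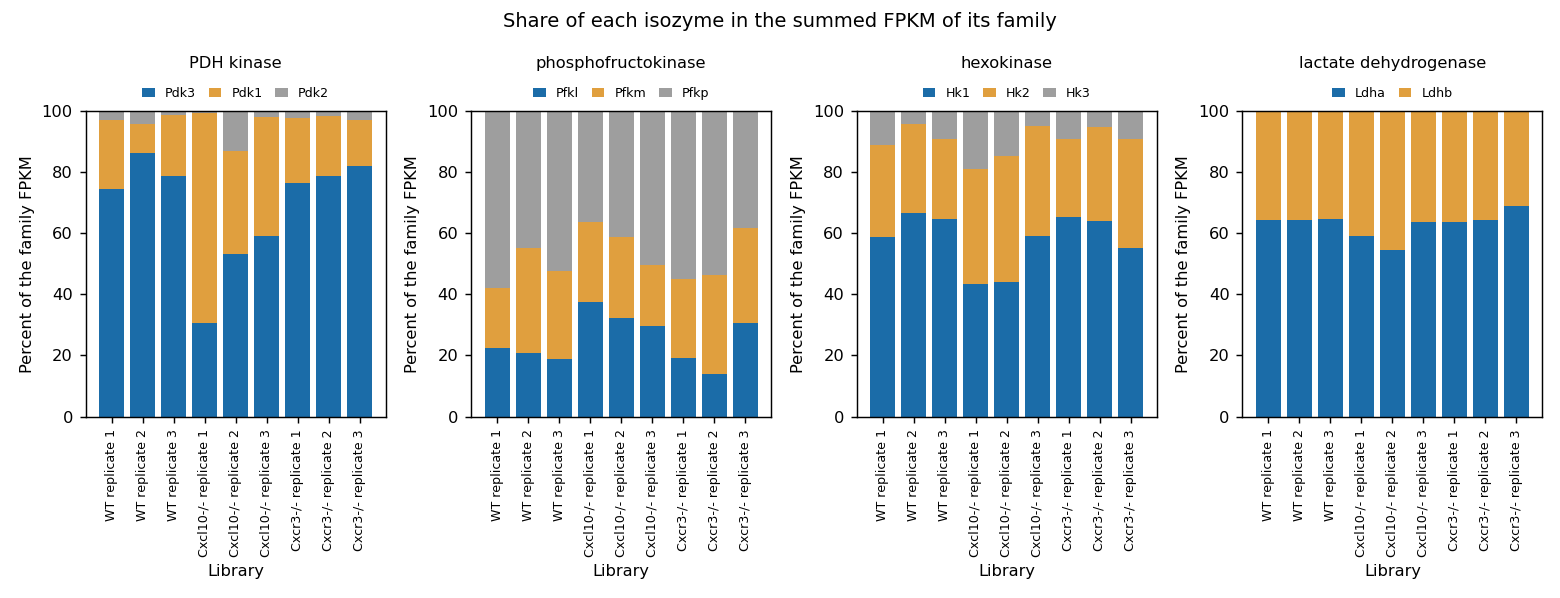
Share of each isozyme (percent of the summed FPKM of its family, stacked) in each of the 9 libraries for pyruvate dehydrogenase (PDH) kinases, phosphofructokinases, hexokinases and lactate dehydrogenases. Pdk3 holds 30.6 to 59.1% of its family in the Cxcl10-/- libraries and 74.3% or more in the other 6 libraries.

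Of the 4 oxygen-sensing genes, the prolyl hydroxylases and HIF alpha subunits, Egln1 passed against WT. Egln1, the main HIF prolyl hydroxylase, was at 4.01, 3.94 and 5.31 FPKM in WT, 22.6, 10.6 and 15.0 FPKM in Cxcl10-/- and 9.58, 3.58 and 5.84 FPKM in Cxcr3-/-. Each Cxcl10-/- library exceeded all others, while WT and Cxcr3-/- overlapped. Egln1 rose 3.42-fold against WT, a log2 change of 1.78 ± 0.41 (SE; edgeR adjusted p = 0.0261). Egln1 no longer passed when WT replicate 1, 2 or 3 was left out, at edgeR adjusted p of 0.103, 0.122 and 0.0769 and log2 changes of 1.73, 1.69 and 1.91. Egln3, a hydroxylase that HIF itself induces, was between 0.55 and 5.56 FPKM in Cxcl10-/- and 1.18 to 2.71 FPKM in WT, and it did not pass (log2 change 0.33 ± 0.89; edgeR adjusted p = 0.863).

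Hif1a and Epas1 encode the oxygen-regulated alpha subunits. Hif1a was at 14.0, 22.0 and 20.5 FPKM in WT, 6.69, 5.53 and 14.3 FPKM in Cxcl10-/- and 30.4, 17.3 and 23.9 FPKM in Cxcr3-/-. Cxcl10-/- replicate 3 overlapped the lowest WT library, and the other pair of Cxcl10-/- libraries lay below it. The log2 change against WT was -1.18 ± 0.37 (SE), which did not pass in edgeR (adjusted p = 0.0736) or limma (adjusted p = 0.0795) but passed in DESeq2 (adjusted p = 0.0170) and, without Cxcl10-/- replicate 3, in edgeR (log2 change -1.78; adjusted p = 0.00856). Hif1a also passed against WT in edgeR with no filter on low genes and all 9 libraries (log2 change -1.16, adjusted p = 0.00811). Epas1 was at 0.66, 0.38 and 1.29 FPKM in WT, 3.61, 7.44 and 0.24 FPKM in Cxcl10-/- and 0.20, 0.08 and 0.48 FPKM in Cxcr3-/-. Cxcl10-/- replicates 1 and 2 were the highest of all libraries and replicate 3 was among the lowest, so Epas1 did not pass against WT (log2 change 2.16 ± 1.03; edgeR adjusted p = 0.221). Epas1 is also a gene of endothelial cells, and the endothelial marker sums of these 3 Cxcl10-/- libraries were 466, 671 and 495 FPKM. Their part in the Epas1 values was not tested.

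**Figure D4:**
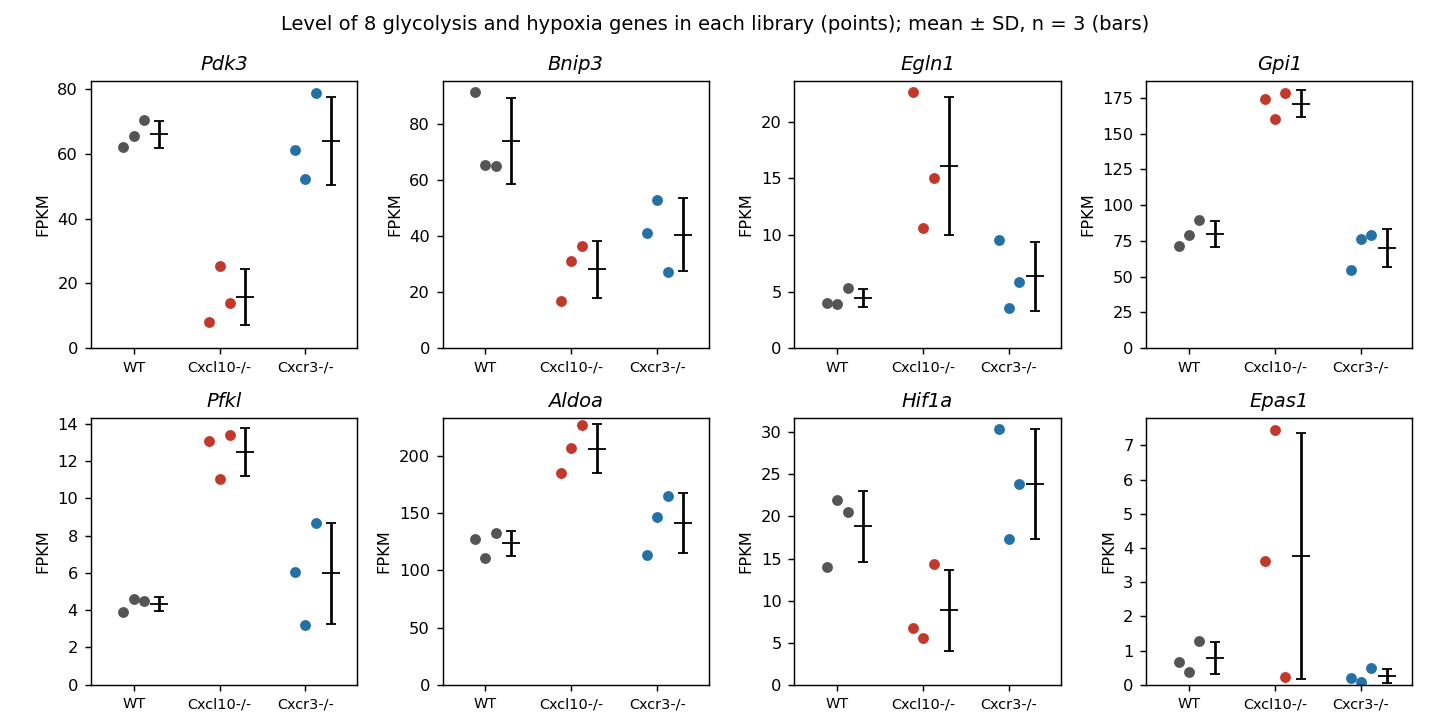
FPKM of 8 genes in each library (points, 3 per genotype) with the mean and SD (bars): the members called in any comparison, plus Aldoa. The means of Pdk3 and Bnip3 are lowest in Cxcl10-/-, those of Egln1, Gpi1, Pfkl and Aldoa highest, and Cxcl10-/- replicate 3 stands apart for Hif1a and Epas1.

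Of the HIF-responsive genes, Bnip3, a receptor for removal of mitochondria by autophagy, was at 91.4, 65.1 and 64.9 FPKM in WT, 16.8, 31.2 and 36.3 FPKM in Cxcl10-/- and 41.1, 52.9 and 27.0 FPKM in Cxcr3-/-. All 6 knockout libraries lay below all 3 WT libraries. Bnip3 fell 2.81-fold in Cxcl10-/-, a log2 change of -1.49 ± 0.34 (SE; edgeR adjusted p = 0.0252). The call ended without WT replicate 1, 2 or 3 (edgeR adjusted p of 0.108, 0.0719 and 0.0613, log2 changes of -1.28, -1.59 and -1.59), and with offsets for GC content and length the log2 change was -0.89 (adjusted p = 0.0803). Its relative Bnip3l, known for clearing mitochondria from maturing red cells, did not pass: it was at 80.6, 79.0 and 97.9 FPKM in WT and 98.4, 80.7 and 117 FPKM in Cxcl10-/- (log2 change 0.12 ± 0.19; edgeR adjusted p = 0.741). Vegfa, the angiogenic growth factor gene, was at 2.87, 3.77 and 2.32 FPKM in WT and 4.43, 6.83 and 6.64 FPKM in Cxcl10-/-. Its groups did not overlap on FPKM, but the log2 change was 0.49 ± 0.54 (SE) and did not pass (edgeR adjusted p = 0.628). On expected counts the Vegfa groups overlapped, at 117, 160 and 116 in WT and 166, 267 and 107 in Cxcl10-/-. Expected count and FPKM implied a Vegfa transcript of 1017 bases in Cxcl10-/- replicate 3 and 2762 to 2837 bases in the other libraries. The separation on FPKM thus rests on this length.

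Upper glycolysis held the other 2 calls. Gpi1, glucose phosphate isomerase, was at 71.1, 79.3 and 89.3 FPKM in WT, 175, 160 and 178 FPKM in Cxcl10-/- and 54.8, 76.4 and 79.3 FPKM in Cxcr3-/-. The Cxcl10-/- libraries lay far above the rest, which overlapped. Gpi1 rose 1.74-fold on expected counts, a log2 change of 0.80 ± 0.19 (SE; edgeR adjusted p = 0.0290), and by 1.09 on the log2(FPKM + 1) scale in limma (adjusted p = 0.00529). The edgeR call ended without WT replicate 1, 2 or 3 (adjusted p of 0.117, 0.130 and 0.0637, log2 changes of 0.74, 0.75 and 0.90) and without Cxcl10-/- replicate 3 (log2 change 0.74; adjusted p = 0.0524).

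Pfkl, a phosphofructokinase chain of the committed step, was at 3.90, 4.61 and 4.51 FPKM in WT, 13.1, 11.02 and 13.4 FPKM in Cxcl10-/- and 6.05, 3.23 and 8.66 FPKM in Cxcr3-/-. The Cxcl10-/- libraries were again above all others. Pfkl rose 2.71-fold, a log2 change of 1.44 ± 0.38 (SE; edgeR adjusted p = 0.0423), close to the threshold. Its call ended in edgeR without WT replicate 1, 2 or 3 (adjusted p of 0.143, 0.144 and 0.130, log2 changes of 1.39, 1.47 and 1.46), without Cxcl10-/- replicate 1 or 3 (0.0511 and 0.0680, at 1.42 and 1.35) and without Cxcr3-/- replicate 1 (0.0579, at 1.44). With GC and length offsets the log2 change was 1.18 (adjusted p = 0.0800). Over all genes, 785 were called with all libraries and 229, 193 and 253 without WT replicate 1, 2 or 3. The Pfkl share of the summed phosphofructokinase FPKM was 18.9 to 22.3% in WT, 29.5 to 37.6% in Cxcl10-/- and 14.0 to 30.5% in Cxcr3-/-, and the sum was 17.5 to 23.9, 34.3 to 45.4 and 23.1 to 31.5 FPKM. Pfkm and Pfkp, the muscle and platelet chains, were also higher on FPKM in each Cxcl10-/- library than in WT, but neither passed (log2 changes of 0.52 ± 0.37 and 0.72 ± 0.31; edgeR adjusted p = 0.422 and 0.173).

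The symbol Aldoa had 2 identifiers in the deposited table, and only the one with more counts was followed. Aldoa, which splits the hexose bisphosphate, was at 127, 111 and 132 FPKM in WT, 185, 206 and 227 FPKM in Cxcl10-/- and 113, 146 and 165 FPKM in Cxcr3-/-. The Cxcl10-/- libraries did not overlap with the others, yet the edgeR test just missed (log2 change 0.65 ± 0.19; adjusted p = 0.0594), whereas limma (0.73; adjusted p = 0.0252) and DESeq2 (adjusted p = 0.0170) called it. With no filter on low genes, edgeR also called Aldoa (log2 change 0.66, adjusted p = 0.0371). Aldoc, the brain-type aldolase, gave 1.64 to 6.76% of aldolase FPKM in all 9 libraries. Of the hexokinases, which trap glucose in the cell, Hk2 was at 6.92, 8.85 and 6.64 FPKM in WT and 13.7, 11.4 and 11.9 FPKM in Cxcl10-/-. Those groups did not overlap, but Hk2 did not pass (log2 change 0.64 ± 0.24; edgeR adjusted p = 0.133). Hk2 gave 26.1 to 30.1% of hexokinase FPKM in WT, 35.95 to 41.2% in Cxcl10-/- and 25.3 to 35.9% in Cxcr3-/-. Of the transporters, Slc2a1, the basal glucose carrier, ranged from 6.47 to 19.7 FPKM in Cxcl10-/- and from 3.72 to 8.48 FPKM in WT (log2 change 0.98 ± 0.49; edgeR adjusted p = 0.249), and none of the 3 tested transporters passed.

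Lower glycolysis and lactate production held no call in Cxcl10-/- cells. Gapdh was at 389, 479 and 510 FPKM in WT, 526, 608 and 591 FPKM in Cxcl10-/- and 553, 550 and 540 FPKM in Cxcr3-/-. All 6 knockout libraries stood above WT on FPKM, but on TMM-scaled counts the log2 change was 0.23 ± 0.13 in Cxcl10-/- (SE; edgeR adjusted p = 0.299) and 0.19 ± 0.13 in Cxcr3-/- (adjusted p = 0.907). Ldha was at 254, 235 and 240 FPKM in WT, 268, 286 and 272 FPKM in Cxcl10-/- and 240, 266 and 278 FPKM in Cxcr3-/-. The Cxcl10-/- libraries sat above WT and overlapped Cxcr3-/-, and the change on counts was small (log2 change 0.07 ± 0.13; edgeR adjusted p = 0.797). Pgk1 was at 158, 157 and 168 FPKM in WT, 237, 139 and 190 FPKM in Cxcl10-/- and 219, 161 and 174 FPKM in Cxcr3-/-, with overlap between all groups (log2 change 0.15 ± 0.19 in Cxcl10-/-; edgeR adjusted p = 0.695). The directions of Ldha and Pgk1 flipped under quantile normalization of FPKM, to -0.02 and -0.04. Pkm, pyruvate kinase, was at 42.9, 46.2 and 61.3 FPKM in WT and 71.4, 65.4 and 78.4 FPKM in Cxcl10-/- (log2 change 0.44 ± 0.18; edgeR adjusted p = 0.165). The FPKM of the 19 glycolytic enzymes from hexokinase to lactate dehydrogenase summed to 1464 to 1648 in WT, 1992 to 2105 in Cxcl10-/- and 1740 to 1809 in Cxcr3-/-. These sums did not overlap, and they rest on FPKM, whose scale is shared with the mitochondrial transcripts.

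Of the enzymes that set fructose bisphosphate regulation, Pfkfb2 was at 2.28 to 9.02 FPKM in WT and 0.85 to 2.96 FPKM in Cxcl10-/- (log2 change -1.68 ± 0.60; edgeR adjusted p = 0.108), while Pfkfb3 was at 4.04 to 5.91 and 4.21 to 8.69 FPKM (log2 change 0.29 ± 0.34; edgeR adjusted p = 0.655). Pfkfb3 gave 33.7 to 54.5% of the summed Pfkfb2, Pfkfb3 and Pfkfb4 FPKM in WT, 67.0 to 75.9% in Cxcl10-/- and 47.7 to 58.5% in Cxcr3-/-. The Cxcl10-/- shares lay above both other groups. Pfkfb1 is not a member and was left out of this sum. It was at 2.24, 5.93 and 5.91 FPKM in WT, 0.68, 0.94 and 0 FPKM in Cxcl10-/- and 5.34, 1.24 and 0.67 FPKM in Cxcr3-/-, and edgeR did not call it against WT. Of the 3 members below the filter, Slc16a3, a lactate exporter, was at 0.06, 0.58 and 0.45 FPKM in WT, 0, 0.02 and 0 FPKM in Cxcl10-/- and 0.36, 0.42 and 0.18 FPKM in Cxcr3-/-. Eno2, the neuronal enolase, stayed at or under 1.39 FPKM and Pfkfb4 at or under 1.62 FPKM in every library.

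Promoter sequence was set beside these genes because HIF binds a short core motif. RefSeq windows on GRCm38.p6, from 250 bases before to 50 after an annotated start, were found for 33 of the 36 members and searched for ACGTG or GCGTG on either strand. At least 1 match lay in a window of 30 of these 33 genes (90.9%), beside 12628 of 27025 genes (46.7%) with a promoter window. Some genes had more than 1 window. By window, 40 of 50 member windows (80%) held a match, beside 14380 of all 32851 windows (43.8%). The windows of members were also richer in GC, with a median of 61.2% beside 52.7% over all windows. Windows of 4 called genes are printed because they span the range from many matches to none among genes that moved in opposite directions; capitals mark the matches, with matches on the other strand read as CACGT or CACGC. They are Pdk3 at chrX:93832101-93832400, Egln1 at chr8:124949205-124949504, Bnip3 at chr7:138909457-138909756 and Gpi1 at chr7:34230287-34230586, all from the minus strand and read 5′ to 3′.
Pdk3: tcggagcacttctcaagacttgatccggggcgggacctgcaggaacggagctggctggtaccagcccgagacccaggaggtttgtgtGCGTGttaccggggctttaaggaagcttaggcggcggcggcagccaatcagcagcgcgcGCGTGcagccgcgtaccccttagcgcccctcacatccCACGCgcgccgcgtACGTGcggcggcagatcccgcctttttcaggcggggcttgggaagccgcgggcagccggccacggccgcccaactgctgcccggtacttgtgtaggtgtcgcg
Egln1: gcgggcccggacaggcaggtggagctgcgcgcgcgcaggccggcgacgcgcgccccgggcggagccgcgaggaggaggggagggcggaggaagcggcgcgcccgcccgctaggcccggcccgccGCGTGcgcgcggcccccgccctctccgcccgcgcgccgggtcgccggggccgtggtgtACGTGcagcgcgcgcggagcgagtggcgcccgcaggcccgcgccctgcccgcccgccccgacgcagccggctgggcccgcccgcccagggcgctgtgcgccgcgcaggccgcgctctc
Bnip3: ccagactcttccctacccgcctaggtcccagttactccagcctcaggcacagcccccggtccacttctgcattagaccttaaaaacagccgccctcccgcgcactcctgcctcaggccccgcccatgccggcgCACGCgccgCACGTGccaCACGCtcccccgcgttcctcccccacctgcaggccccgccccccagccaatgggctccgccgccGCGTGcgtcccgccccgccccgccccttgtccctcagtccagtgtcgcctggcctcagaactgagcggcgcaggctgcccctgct
Gpi1: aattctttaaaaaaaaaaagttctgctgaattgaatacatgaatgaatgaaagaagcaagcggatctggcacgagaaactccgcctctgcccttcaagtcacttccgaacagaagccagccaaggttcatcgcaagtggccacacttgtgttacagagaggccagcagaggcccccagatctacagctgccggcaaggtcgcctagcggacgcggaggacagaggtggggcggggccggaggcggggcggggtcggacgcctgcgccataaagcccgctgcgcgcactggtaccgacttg
The Pdk3 window held 4 matches, the Bnip3 window 5, of which some overlap each other, the Egln1 window 2 and the Gpi1 window 0. Of these 4 genes, those with matches were the 2 that fell and 1 that rose in Cxcl10-/-. The window of Pfkl, which also rose and is not printed, held 1 match. A match is only a match of letters, and binding was not measured here.

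Loss of the receptor gene was compared with WT in the same way, with the same WT libraries. In Cxcr3-/- LT-HSCs 0 of the 33 tested members passed in edgeR, beside 0% of all 10866 genes, and limma and DESeq2 also called 0 members. At an unadjusted edgeR p under 0.05 there was 1 member, Bnip3, and 681 genes in all, and DESeq2 called 78 genes. Bnip3, given above by library, had a log2 change of -0.94 ± 0.34 (SE; edgeR adjusted p = 0.709), and its values did not overlap with WT. The next smallest p values belonged to Ldhb, Bnip3l and Slc2a3. Bnip3l, at 62.2, 68.9 and 79.4 FPKM, overlapped the WT range (log2 change -0.35 ± 0.19; edgeR adjusted p = 0.856). Slc2a3, a high-affinity glucose transporter, was at 8.27, 10.6 and 13.9 FPKM in WT, 8.49, 13.5 and 18.7 FPKM in Cxcl10-/- and 15.9, 15.4 and 20.1 FPKM in Cxcr3-/-. The Cxcr3-/- libraries lay above WT but the change did not pass (log2 change 0.62 ± 0.36; edgeR adjusted p = 0.871). On FPKM, 7 of 33 tested members did not overlap with WT, beside 19.8% of all genes, so the share was near that of the table. Of all genes, 12.1% were higher and 7.63% lower. Among the members Bnip3 was lower, and Slc2a3, Hk2, Tpi1, Gapdh, Pgam1 and Pfkfb3 were higher. The member median log2 change was 0.19, beside 0.02 over all genes. The rank correlation of log2 change with GC content over genes was 0.188 here, and its part in the member median was not tested.

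The direct comparison of both knockouts tested whether receptor loss and ligand loss differed. Of 33 tested members 4 passed (12.1%), beside 10.5% of all genes, 5.1% higher and 5.41% lower, so the share was near that of the table. limma called 3 of them, all but Epas1, beside 12.5% of all genes. Pdk3 was 4.16-fold higher in Cxcr3-/- than in Cxcl10-/- (log2 difference 2.06 ± 0.34; edgeR adjusted p = 0.00464), and this call held without any 1 library, from 1.74 to 2.53. Gpi1 was 1.68-fold lower (log2 difference -0.75 ± 0.19; edgeR adjusted p = 0.0275). Hif1a was 2.72-fold higher (log2 difference 1.44 ± 0.37; edgeR adjusted p = 0.0299), and its libraries did not overlap between the knockouts. The other member counted was Epas1, with a log2 difference of -3.83. It had entered the test only through its level in Cxcl10-/-, Cxcl10-/- replicate 3 lay within the Cxcr3-/- range and limma on FPKM did not call it, so its call is no support for a difference. Without Epas1, 3 of 32 members were called (9.38%). On FPKM 11 members did not overlap, 8 of them lower in Cxcr3-/-, beside 29.1% of all genes in either direction and 16.4% in the lower one. Egln1, Pfkl and Bnip3, called against WT in Cxcl10-/-, were not called between the knockouts in edgeR (log2 differences of -1.33 ± 0.41, -1.04 ± 0.38 and 0.55 ± 0.34; adjusted p = 0.0579, 0.101 and 0.333). DESeq2 called 6 members here, as did edgeR with no filter on low genes: the same 4 with Egln1 (adjusted p = 0.0176 and 0.0244) and Ldhb (adjusted p = 0.0171 and 0.0132) added. Over all genes, DESeq2 called 1814 of 10866 and the fit with no filter 1514 of 20476.

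The Gpi1 and Hif1a calls of this comparison ended in several fits that left out 1 library. Over all genes, 1142 were called with all libraries and 423, 840 and 517 without Cxcr3-/- replicate 1, 2 or 3. Without Cxcl10-/- replicate 1, 2 or 3 the number was 1407, 1268 and 1063. Without WT replicate 2 or 3, which are not in this contrast, it was 770 and 799. Without Cxcr3-/- replicate 1 only Pdk3 of the members was called, with edgeR adjusted p of 0.0968 for Gpi1 (log2 difference -0.61) and 0.120 for Hif1a (1.25). The Gpi1 call also ended without Cxcl10-/- replicate 3 or Cxcr3-/- replicate 2 (adjusted p of 0.0575 and 0.0645, at -0.69 and -0.76). The Hif1a call ended without WT replicate 2 or 3 (0.0510 and 0.0515, at 1.44 and 1.44), Cxcl10-/- replicate 1 or 2 (0.0596 and 0.0682, at 1.24 and 1.19) or Cxcr3-/- replicate 3 (0.0827, at 1.42), and with GC and length offsets it was 0.85 (adjusted p = 0.173). Among the fits that left out 1 library or none, Epas1 was called in this comparison only with all 9 libraries or without Cxcl10-/- replicate 3.

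Counts and FPKM gave unlike sizes for some enzymes, so the transcript length implied by each library was computed from the ratio of expected count to FPKM. For Gpi1 it was 1574, 1509 and 1629 bases in WT, 1311, 1411 and 1353 bases in Cxcl10-/- and 2006, 1773 and 2015 bases in Cxcr3-/-. The 3 genotypes were wholly separate, with the shortest mix of transcripts in Cxcl10-/- and the longest in Cxcr3-/-. With the length as an offset, the Gpi1 log2 change was 0.99 in Cxcl10-/- against WT (edgeR adjusted p = 0.0130) and -1.22 in Cxcr3-/- against Cxcl10-/- (adjusted p = 0.00379). Under the same offset Pfkl in Cxcl10-/- against WT no longer passed (edgeR adjusted p = 0.0504). Pdk3 and Tpi1 implied 2114 to 2115 and 1601 bases in all 9 libraries. Vegfa implied 1017 bases in Cxcl10-/- replicate 3 and 2762 to 2837 bases in the other libraries.

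**Figure D5:**
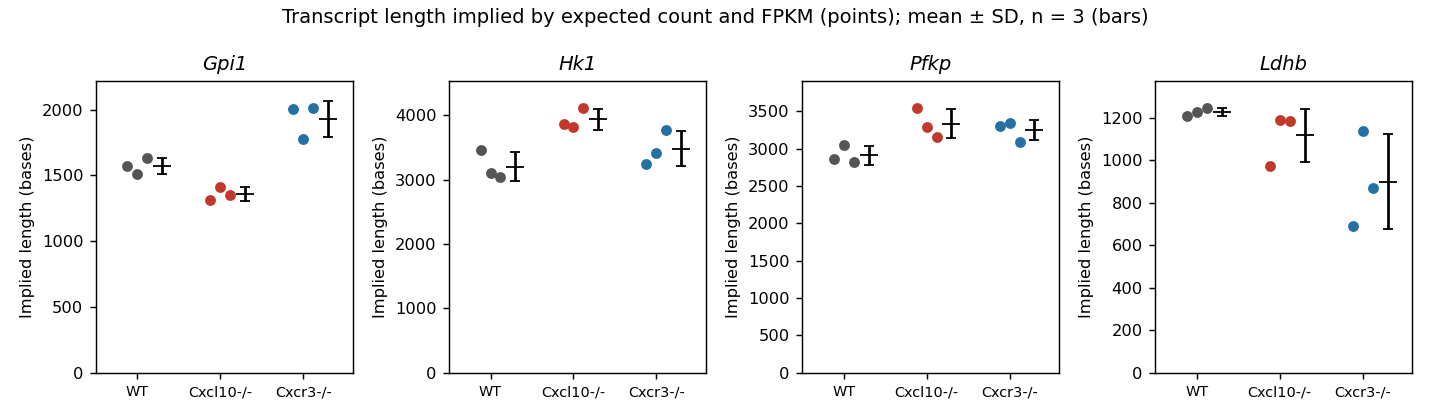
Transcript length implied by each library (bases; expected count divided by FPKM and library total) for Gpi1, Hk1, Pfkp and Ldhb, points by library with mean and SD. For Gpi1 the 3 genotypes do not overlap, and for Ldhb the Cxcr3-/- libraries reach from 693 to 1140 bases.

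Hk1 and Pfkp had longer implied transcripts in Cxcl10-/- than in WT. Hk1, the constitutive hexokinase, was at 3464, 3105 and 3036 bases in WT and 3871, 3820 and 4120 bases in Cxcl10-/-, and its Cxcr3-/- libraries, 3239, 3418 and 3774 bases, overlapped WT and lay below Cxcl10-/-. For Ldhb, the B chain of lactate dehydrogenase, the values were 1209, 1226 and 1249 bases in WT, 976, 1189 and 1188 bases in Cxcl10-/- and 693, 1140 and 868 bases in Cxcr3-/-. Ldhb is thus measured unlike by unit: it stood at 142, 130 and 131 FPKM in WT, 185, 239 and 154 FPKM in Cxcl10-/- and 136, 146 and 126 FPKM in Cxcr3-/-. By level per length Cxcl10-/- lay above the others, but neither unit gave a call against WT (edgeR log2 change 0.30 ± 0.24, adjusted p = 0.492; limma 0.50, adjusted p = 0.0989). On counts Ldhb was -0.47 ± 0.24 in Cxcr3-/- against WT (edgeR adjusted p = 0.843), and on FPKM 0.02 in limma (adjusted p = 0.994). The implied length differed by at least 2% without overlap for 3 of 30 measurable members in Cxcl10-/- against WT, beside 5.07% of genes, for 2 of 30 in Cxcr3-/- against WT, beside 4.26%, and for 1 of 30 between the knockouts, beside 5.43%.

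Other genes of the same pathways were compared between Cxcl10-/- and WT, beside the 7.22% of all genes called. Of 10 tested genes for pyruvate entry into mitochondria, 1 fell (10%): Mpc1, a subunit of the mitochondrial pyruvate carrier, was at 510, 415 and 429 FPKM in WT, 204, 221 and 193 FPKM in Cxcl10-/- and 203, 423 and 394 FPKM in Cxcr3-/-. The Cxcl10-/- libraries and Cxcr3-/- replicate 1 were low, and the other 5 libraries were high. The log2 change of Mpc1 was -1.20 ± 0.24 in Cxcl10-/- (SE; edgeR adjusted p = 0.0120). Of 18 genes listed for the pentose phosphate and glycogen branches, 1 rose and 1 fell (11.1%). That list also held Gfpt1 and Pfkfb1, and Pfkfb1 was counted among the further glycolytic isozymes as well. Taldo1, transaldolase, was at 29.7, 38.0 and 39.8 FPKM in WT and 70.8, 74.2 and 72.3 FPKM in Cxcl10-/- (log2 change 0.93 ± 0.23; edgeR adjusted p = 0.0341), and Gyg, the glycogenin that primes glycogen, was at 77.6, 80.9 and 91.5 FPKM in WT and 47.2, 46.6 and 55.6 FPKM in Cxcl10-/- (log2 change -0.83 ± 0.18; edgeR adjusted p = 0.0199). For both genes the WT and Cxcl10-/- libraries did not overlap.

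Of 13 tested HIF pathway regulators, 1 rose and 1 fell in Cxcl10-/- against WT (15.4%, beside 7.22% of all genes). Ep300, a histone acetyltransferase that HIF recruits, was at 7.94, 10.1 and 9.82 FPKM in WT and 5.45, 5.36 and 5.59 FPKM in Cxcl10-/- (log2 change -0.85 ± 0.20; edgeR adjusted p = 0.0306), and limma did not call it (adjusted p = 0.158). Elob, a subunit of the ligase complex that ubiquitinates HIF, was at 799, 807 and 829 FPKM in WT and 1261, 1173 and 1464 FPKM in Cxcl10-/- (log2 change 0.59 ± 0.15; edgeR adjusted p = 0.0406). Of 27 tested other HIF-responsive genes, edgeR, limma and DESeq2 each called 0 in this comparison, with 3 at an unadjusted edgeR p under 0.05. Of 5 tested further glycolytic isozymes and partners 0 passed in edgeR, limma or DESeq2, with 3 at an unadjusted edgeR p under 0.05. In Cxcr3-/- against WT 0 genes of these 5 lists passed. Between the knockouts, where 10.5% of all genes were called, 2 of the 13 HIF pathway regulators (15.4%), 1 of the 5 further isozymes and partners (20%) and 1 of the 27 other HIF-responsive genes (3.7%) passed. In edgeR, 0 of the 10 pyruvate entry genes and 0 of the 18 genes of the pentose phosphate and glycogen list passed there. Mpc1, Taldo1 and Gyg were thus not called between the knockouts. Ep300 was higher in Cxcr3-/- (log2 difference 1.03 ± 0.20; edgeR adjusted p = 0.0104) and Elob lower (-0.53 ± 0.15; adjusted p = 0.0468), as were Bsg, the chaperone of lactate transporters (-0.83 ± 0.21; adjusted p = 0.0258), and Trf, the iron carrier transferrin (-2.03 ± 0.44; adjusted p = 0.0154).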

How the data were processed

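RNA of sorted LT-HSCs was measured in 9 mouse libraries, 3 per genotype. Per the file headers, the deposited table gives FPKM for each library, made by the authors. Its deposited counts are treated here like expected counts of RSEM, since only 87.1% of the values are whole. RSEM, StringTie, HISAT2 and fastp are named in the submitters' processing notes, with versions, build and annotation not given in the sources used here. Levels were read from FPKM. Tests used edgeR 4.0.16 in R 4.3.3 (quasi-likelihood, TMM factors) on expected counts rounded to whole numbers, for genes averaging 1 FPKM or more across all 9 libraries, with 1 mean per genotype and Benjamini-Hochberg adjustment over all 10866 genes, called under 0.05. limma 3.58.1 on log2(FPKM + 1), which understates changes of low genes, and DESeq2 1.42.0 were alternatives; a gene with no adjusted p in DESeq2 was kept as not called. Other alternatives changed size factors, filter, pseudocount, FPKM scaling, spread per genotype, libraries in the fit, GC and length offsets, the replicate block and each library in turn; offsets for implied length were added after the data were seen. Implied length was computed where every library had at least 20 counts and 0.5 FPKM. The script for the tests was tested on simulated data. Of the identifiers, 22267 are in GENCODE M21, which gave GC and length.

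Members and gene lists were chosen with earlier results of these data known. Values in every library are given for members called in any comparison, the 5 highest by mean FPKM, Hif1a and Epas1, and the 4 with the smallest p where fewer than 4 were called; the others are given by range, and members of an isozyme family by single values. Up to 4 called genes per list were named. Totals of 12098498 to 17904629 expected counts set the precision. No batch is given, and nothing ties replicate numbers to a litter or day, so the number was not used as a block.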

Additional observations from a re-analysis of the deposited data

How the results depend on the processing

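The count of called members in Cxcl10-/- against WT was 5, and it was 8 with DESeq2, which added Aldoa, Pfkfb2 and Hif1a, and 3 (Gpi1, Pdk3 and Egln1) with the GC and length correction. It was 7 in edgeR with no filter, which added Aldoa and Hif1a. Over all genes the main fit, DESeq2 and the corrected fit called 785, 1498 and 802. The fit with no filter called 1183 of 20476. Leaving out each library in turn gave 1 to 5 members in this comparison, 1 to 3 in Cxcr3-/- against Cxcl10-/- (4 with all libraries) and 0 in Cxcr3-/- against WT. Over all genes the ranges were 193 to 1003, 423 to 1407 and 0 to 6. Between the knockouts the count of called members was 6 with DESeq2 and with no filter, which added Egln1 and Ldhb, 2 with limma-voom and the spread set per genotype, and 1 in a fit of only the 2 groups compared. Over all genes these fits called 1814, 1514, 634 and 423, beside 1142 in the main fit. In Cxcr3-/- against WT the count of called members was 0 under every alternative run. Pdk3 was called in Cxcl10-/- against WT and between the knockouts under every alternative run. The GC and length correction moved the median log2 change of all genes from 0.06 to 0.23 in Cxcl10-/- against WT, and from -0.05 to -0.20 between the knockouts. Called genes in Cxcl10-/- against WT split into 383 higher and 402 lower in edgeR, 663 and 345 in limma on FPKM, 350 and 218 in limma-voom, and 651 and 151 with that correction.

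Libraries with the same replicate number showed no visible shared deviation. Deviations from the group mean correlated at -0.08 to 0.02 for the 9 same-numbered pairs and at -0.04 to 0.08 for the 18 others. With 3 libraries per group this cannot tell whether mice were paired. With the replicate number as a block, 3 members (Gpi1, Pdk3 and Egln1) were called in Cxcl10-/- against WT, as with the block and the GC and length correction together, and 442 genes in all against 785 without it. Between the knockouts the block gave 4 member calls, Egln1 in place of Epas1, beside 833 genes in all against 1142 without it. In Cxcr3-/- against WT it gave 0.

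Of the single members, 40 values changed sign, all of members that passed in neither setting. In Cxcr3-/- against WT, Gpi1 was -0.20 by limma on log2(FPKM + 1), -0.20 with a pseudocount of 0.1, -0.14 after quantile normalization, -0.014 with the GC and length correction, -0.024 with that correction and the block and -0.24 with implied length; Ldhb was 0.022, 0.022 and 0.17 in the first 3 of these. Pdk3 was 0.026 after quantile normalization, 0.060 with GC and length and 0.065 with the block added, and Ldha was -0.0035 with no filter. In Cxcl10-/- against WT, quantile normalization gave -0.021 for Ldha and -0.045 for Pgk1. Between the knockouts it gave Gapdh 0.17, Ldha 0.26 and Pgk1 0.37. There Pgk1 was also 0.013 with limma-voom, 0.088 with GC and length, 0.0069 with the block, 0.10 with both and 0.024 with implied length, and Ldha was 0.12 with GC and length, with or without the block. Leaving out libraries gave, in Cxcr3-/- against WT, -0.10 to 0.19 for Gpi1, -0.30 to 0.019 for Pdk3, -0.02 to 0.11 for Ldha and -0.0013 to 0.29 for Aldoa. It gave -0.034 to 0.34 for Pgk1, -0.056 to 0.27 for Bnip3l and -0.21 to 0.51 for Slc2a3 in Cxcl10-/- against WT. Between the knockouts it gave -0.20 to 0.17 for Pgk1, -0.094 to 0.042 for Ldha and -0.11 to 0.0049 for Gapdh. The causes of these changes were not tested.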
